A study of Mus musculus with 28 samples.

Results

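The comparison set islets of 8 mice labelled βKlf6KO and given S961 against islets of 6 mice labelled βKlf6KO and given saline. These 14 libraries were all those with that genotype label, of 28 in the series, and each was 1 mouse. In the labels, βKlf6KO mice carry 2 floxed alleles of Klf6 and 1 Ins1 allele that holds Cre recombinase, so that Cre is made where the Ins1 promoter is active, chiefly in β cells. The other 14 libraries, 8 labelled control S961 and 6 labelled control saline, have the same floxed alleles and no Cre. All mice were males of 10 to 12 weeks on a mixed C57Bl6 and 129sv background, and S961 is a peptide that blocks the insulin receptor. Dose and length of treatment are not given in the sources used here. Batches of 120 to 150 hand-picked islets per mouse were left overnight in medium, and poly(A) RNA was read as 125-base single ends. The question of the comparison is which islet genes respond to S961 when Klf6 is meant to be missing from β cells. The values were log2 CPM (the log2 of a gene's reads scaled to the size of the library).

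Insulin acts through its receptor and the kinase Akt, which among other things keeps FoxO transcription factors out of the nucleus. In mice, a block of the insulin receptor raises blood glucose, and adult β cells, which rarely divide, are known to re-enter the cell cycle under such demand. Klf6 is a zinc-finger transcription factor of the Krüppel-like family. Cell division genes are made in waves: replication genes first, then mitotic cyclins and mitosis and spindle genes. Many of the later genes are read from promoters with a cell cycle homology region (CHR) and CCAAT boxes.

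No gene passed the test between S961 and saline in the libraries labelled βKlf6KO. In limma, with Benjamini-Hochberg adjustment over 13591 genes, 0 genes were called at an adjusted p below 0.05 (0% of genes tested), and the smallest adjusted p was 0.998. At an unadjusted p below 0.05 there were 413 genes (3.04%), of which 246 were higher (1.81%) and 167 lower (1.23%) after S961. The data bounded most changes all the same. The 95% interval of the difference lay within 2-fold either way for 11832 genes, or 87.1% of those tested, and within 1.5-fold for 61.9%. For the 10788 genes that averaged 4 CPM or more the share within 2-fold was 91.9%, and for rarer genes it was 68.5%. Only 86 genes had a fitted difference of 2-fold or more, 15 higher and 71 lower, and 9 of them averaged 4 CPM or more.

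**Figure D1:**
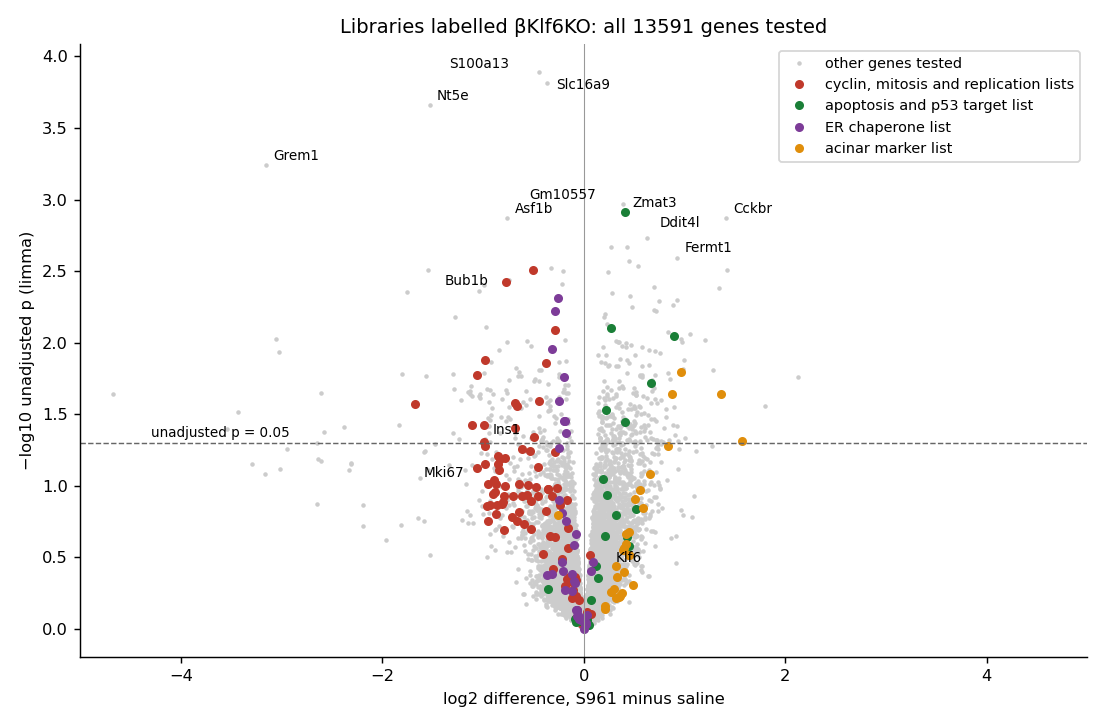
Each point is 1 of 13591 genes tested, with the log2 difference, S961 minus saline, in libraries labelled βKlf6KO on the x axis and −log10 of the unadjusted limma p on the y axis. The dashed line marks an unadjusted p of 0.05, which 413 genes passed, and no gene passed after adjustment. Members of the cell division lists (red) lie mostly left of 0, and acinar markers and p53 targets mostly right of it.

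The libraries were deep and their islet identity was clear, but they did not all look alike. The 14 libraries held 30415583 to 45001633 reads over listed genes. Hormone genes stood at high levels: Ins2 averaged 15.65 log2 CPM after S961 and 15.99 after saline, and glucagon (Gcg) 15.18 and 15.11. The first principal component of the 14 libraries held 42.8% of the variance. A gene's loading on it ran with transcript GC content (Spearman 0.797 across 13584 genes, which are not independent). The libraries farthest out on it were S961 replicates 4 and 1, at -63.21 and -50.08, and both were sequenced in lane 4. Every lane (4, 5, 6 and 7) held 1 or 2 libraries of each of the groups compared.

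The targeted gene and the insulin genes were followed in every library. Klf6 (ENSMUSG00000000078; chromosome 13 of GRCm38, bases 5861482 to 5870394 of the plus strand) had 7.46, 6.65, 6.38, 7.52, 7.01, 7.55, 7.22 and 7.94 log2 CPM in S961 replicates 1 to 8, against 6.69, 6.84, 7.13, 7.41, 6.79 and 6.95 in saline replicates 1 to 6. The groups overlapped, and the mean was 7.22 ± 0.51 (SD, n = 8) after S961 and 6.97 ± 0.26 (n = 6) after saline. The difference of 0.25 did not pass (exact permutation p = 0.302, adjusted 0.392 over 4 measures, two-sided). Within lanes 4, 5, 6 and 7 it was 0.80, -0.15, -0.44 and 0.71, so the lanes did not share a direction. Klf6 was readily measured in libraries labelled as its knockout. Means of the libraries labelled control were close to these, 6.94 after S961 and 7.0 after saline, so the label is used below only as a label. Gene counts do not separate the floxed exons from the rest, or β cells from other islet cells. Deletion of Klf6, and so the match of label and genotype, was not tested.

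Ins1, the insulin gene that carries Cre by the labels, was lower after S961 by the exact test, while Ins2 did not pass. Ins1 (chromosome 19, 52264297 to 52265476, plus strand) had 13.86, 13.67, 14.24, 12.59, 13.45, 13.68, 14.13 and 14.09 log2 CPM in S961 replicates 1 to 8, against 13.43, 15.24, 14.54, 14.78, 15.14 and 15.05 in saline replicates 1 to 6. All 8 S961 values lay below 5 of the 6 saline values, and saline replicate 1 lay among the S961 values. The means were 13.71 ± 0.53 (SD, n = 8) after S961 and 14.69 ± 0.67 (n = 6) after saline. The difference of -0.98 passed the exact permutation test over the 4 measures (p = 0.0107, adjusted 0.0386). In the fit over all genes the limma interval ran from -1.95 to -0.01, with an adjusted p of 1. With quantile scaling the limma difference was -0.40. Ins2 averaged 15.65 ± 0.82 (SD, n = 8) after S961 and 15.99 ± 0.46 (n = 6) after saline, which differed by -0.34 (p = 0.392 in the exact permutation test, adjusted 0.392). In lanes 4, 5, 6 and 7 Ins2 differed by -0.78, -0.44, 0.14 and 0.08.

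The balance of the insulin genes, as log2 of Ins1 over Ins2, was lower after S961 by the exact test. It shares Ins1 with the measure above and is no separate evidence. It was -0.86, -2.19, -2.25, -1.63, -1.98, -2.12, -2.24 and -2.20 in S961 replicates 1 to 8, against -1.81, -1.26, -1.13, -1.24, -1.05 and -1.26 in saline replicates 1 to 6. In each group replicate 1 stood apart from the rest, on the side of the other group. S961 replicate 1 was above every saline library and saline replicate 1 below all other saline libraries. The means were -1.94 ± 0.48 (SD, n = 8) after S961 and -1.29 ± 0.27 (n = 6) after saline, which differed by -0.64 (p = 0.0193 in the exact permutation test, adjusted 0.0386). Both of those replicates were read in lane 4, where the ratio differed by 0.57, against -0.89, -0.95 and -1.06 in lanes 5, 6 and 7. Ins1 itself differed by -0.21 in lane 4 and by -1.33, -0.82 and -0.98 in lanes 5, 6 and 7. The calls were also small in margin: leaving out 1 of 9 libraries ended that of Ins1, and 1 of 11 that of the ratio, at adjusted p-values of 0.0513 to 0.0808 by the same exact test. Those for Ins1 were S961 replicates 2, 5, 6 and 8 and saline replicates 2 to 6, and those for the ratio were S961 replicates 2, 3, 5, 6, 7 and 8 and saline replicates 2 to 6. The number of intact Ins1 alleles in each library was not measured, so its part in these differences was not tested. In libraries labelled control Ins1 averaged 14.03 after S961 and 14.15 after saline. The difference of the 2 responses was -0.86 (95% interval -2.23 to 0.51, limma adjusted p = 1), so a response of Ins1 particular to the labelled knockout was not shown.

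**Figure D2:**
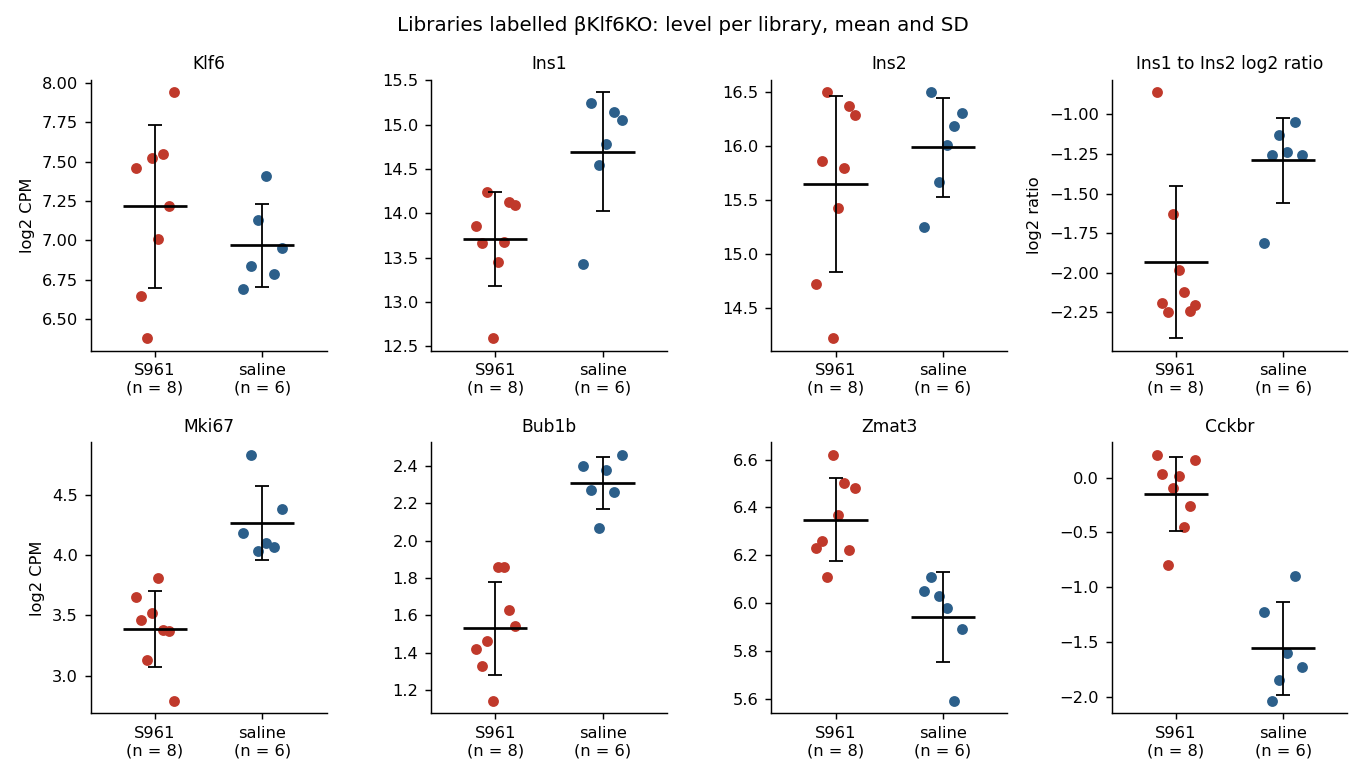
Level per library in log2 CPM (log2 ratio in the fourth panel) for 8 measures in libraries labelled βKlf6KO, S961 (red, n = 8) left of saline (blue, n = 6), with mean and SD in black. All 8 S961 values of Mki67 and Bub1b lie below the saline values and all 8 of Cckbr and Zmat3 above them, while Klf6 and Ins2 overlap.

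Cell division genes stood lower after S961, although none was called. Mki67 marks dividing cells and lies on the minus strand of chromosome 7 (135689784 to 135716361). It had 3.65, 3.46, 3.13, 3.52, 3.81, 3.38, 3.37 and 2.79 log2 CPM in S961 replicates 1 to 8, against 4.18, 4.83, 4.03, 4.10, 4.07 and 4.38 in saline replicates 1 to 6. The groups did not overlap. Mean levels were 3.39 ± 0.31 (SD, n = 8) after S961 and 4.27 ± 0.30 (n = 6) after saline. The difference was -0.88 ± 0.51 (SE; 95% interval -1.92 to 0.17; limma adjusted p = 1). Within lanes 4, 5, 6 and 7 it was -0.59, -0.80, -0.85 and -1.14. The libraries labelled control, which share in the estimate of spread, had an SD of Mki67 of 1.56 after S961 and 1.06 after saline. In a fit of only the 14 libraries the same difference had an SE of 0.16 and a 95% interval of -1.21 to -0.54, with a limma adjusted p of 0.0779.

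Of 37 genes whose groups did not overlap, 26 were lower and 11 higher after S961, which is 0.191% and 0.0809% of the genes tested (0.272% together). Of these 26, 10 were among the 88 tested members of the mitosis, cyclin and replication lists, and none of the 88 was among the 11 higher ones. The mitosis and spindle list, 40 tested of 42 genes listed, held 8 of them: Top2a, Birc5, Nusap1, Bub1, Mki67, Nuf2, Bub1b and Tpx2. Its members had a median difference of -0.74, with 39 below 0, beside a median of 0.00 over all genes, of which 49.2% were below 0. At an unadjusted p below 0.05 the list had 6 lower members and 0 higher, beside 1.23% and 1.81% of all genes. Across libraries the list mean, taken relative to the saline mean, ran from -0.98 to -0.41 after S961 and from -0.33 to 0.35 after saline, without overlap. The summed level of the list, which its most abundant genes set, did overlap, at 8.71 to 9.39 on the log2 scale after S961 and 9.10 to 9.41 after saline, with S961 replicates 1 and 4 at 9.37 and 9.39. The count of 6 rested on single libraries: it was 1, 3 and 2 without saline replicates 2, 4 and 6, 3 without S961 replicate 3, and 12 and 15 without control S961 replicates 4 and 6, while the median stayed between -0.82 and -0.64. Within lanes 4, 5, 6 and 7 the median member differed by -0.33, -0.63, -0.90 and -0.79.

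Among the mitosis genes, Bub1b, a kinase of the spindle checkpoint, had the smallest p. It had 1.42, 1.33, 1.46, 1.14, 1.86, 1.86, 1.63 and 1.54 log2 CPM in S961 replicates 1 to 8, against 2.40, 2.27, 2.07, 2.38, 2.26 and 2.46 in saline replicates 1 to 6. The highest S961 value was below the lowest saline value. The difference was -0.78 ± 0.25 (SE; 95% interval -1.28 to -0.28; limma adjusted p = 1). Top2a, the topoisomerase that untangles chromosomes, ranged from 3.26 to 4.53 after S961 and from 4.69 to 5.31 after saline, a difference of -0.99 (95% interval -1.98 to -0.00). Birc5 (survivin, of the chromosomal passenger complex) ranged from -0.06 to 0.74 after S961 and from 0.93 to 1.95 after saline, a difference of -0.99. The spindle protein Nusap1 differed by -0.98, the checkpoint kinase Bub1 by -0.90, the kinetochore protein Nuf2 by -0.84 and the spindle factor Tpx2 by -0.67. The mitotic kinases Aurkb and Aurka, whose groups overlapped, differed by -1.11 and -0.67, and the kinesin Kif20a by -0.68.

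The cyclin and replication lists leaned the same way by smaller amounts. Of 13 S-phase and mitotic cyclins and their kinases, all tested, 11 were below 0, with a median of -0.45. At an unadjusted p below 0.05, 2 were lower and 0 higher, beside 1.23% and 1.81% of all genes. Ccna2, the S-phase and mitotic cyclin A2, ranged from 1.94 to 3.01 log2 CPM after S961 and from 3.16 to 3.76 after saline, a difference of -0.88. Its kinase Cdk1 ranged from 2.38 to 3.23 after S961 and from 3.26 to 3.90 after saline, a difference of -0.79. Both had groups that did not overlap. The phosphatase Cdc25b, which activates Cdk1, differed by -0.45 (limma adjusted p = 1). Of 35 replication genes tested, of 36 listed, 34 were below 0, with a median of -0.21. At an unadjusted p below 0.05, 7 were lower and 0 higher, beside 1.23% and 1.81% of all genes. Those 7 were Cdc45, of the replicative helicase, at -0.50, the helicase subunit Mcm5 at -0.69, the polymerase subunit Pole at -0.98, the flap endonuclease Fen1 at -0.38, the nucleotide enzymes Tyms at -0.29 and Tk1 at -1.68, and Uhrf1, which keeps DNA methylation on new strands, at -1.06. Leaving out 1 library gave counts of 0 to 3 for the cyclins (0 without S961 replicate 1 or saline replicate 5 or 6) and 4 to 9 for replication (4 without saline replicate 6). The list of D-type cyclins, G1 kinases and inhibitors, 20 tested of 21 listed, had a median of 0.00. Ccnd2, the main D-type cyclin of β cells, differed by 0.06 (95% interval -0.16 to 0.27) and Ccnd1 by -0.17 (limma adjusted p = 1).

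The error of these differences depended on which libraries supplied the estimate of spread. Over the 88 genes the median SE was 0.31 in the fit of 28 libraries and 0.18 in that of the 14, beside 0.19 and 0.14 over all genes. The median SD of the 88 genes was 0.34 and 0.28 in libraries labelled βKlf6KO S961 and βKlf6KO saline, and 0.86 and 0.60 in those labelled control S961 and control saline. With only the 14 libraries in the fit, still 0 genes were called, but 56 of the 88 were lower and 0 higher at an unadjusted p below 0.05, beside 2.3% and 3.32% of all genes (5.62% together). Calls appeared in 4 of the 49 alternatives. With values floored at 1 CPM, 11 genes were called (0.0809%), all lower: Cenph, Exo1, Mcm10, Rad51ap1, Birc5, Clspn, Cdca5, Knl1, Ttk, Pole and Aurkb, each with a part in replication, repair or mitosis, and 6 of them on the lists. The floor sets every value below 1 CPM to the same number and so removes spread among low libraries: Exo1 differed by -0.50 with it and by -0.995 without it. The calls are therefore given as a description of that setting only. With the 14 libraries weighted by their quality, 44 genes were called (0.324%), 35 of them lower, and 16 of the lower ones were on the lists. With the first component of the 14 as a covariate, 76 were called (0.559%), 39 of them lower, 20 of those on the lists, and 32 genes were called in both of these fits. With weights over all 28 libraries 2 were called (0.0147%), both lower and neither on the lists. Weights and the component in a fit of the 14 libraries were chosen after seeing the data. Without S961 replicates 1 and 4, which stood apart, the mitosis list had a median of -0.73 and 3 lower members at an unadjusted p below 0.05, and again 0 genes were called.

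**Figure D3:**
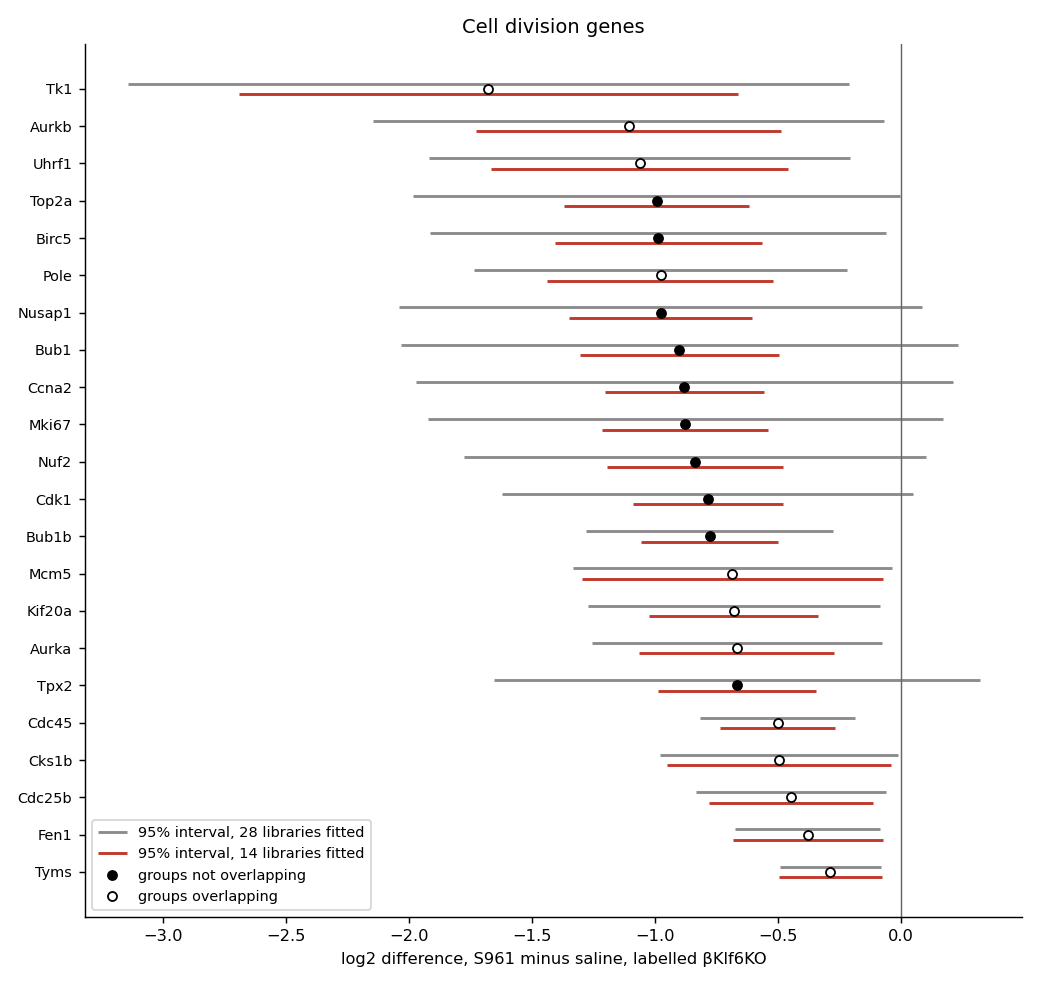
Log2 difference, S961 minus saline, in libraries labelled βKlf6KO for the 22 cell division genes that had an unadjusted p below 0.05 or groups that did not overlap (filled points). Grey lines are 95% intervals with the spread taken from 28 libraries and red lines with that of the 14; every point is below 0 and the red lines are mostly the shorter.

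Promoter windows are shown for Mki67, Top2a and Bub1b, because these genes stood lower in all 8 S961 libraries than in any saline library and their windows hold a CHR. Of the 10 such genes on the lists, 8 matched RefSeq promoters (GRCm38.p6; 250 bases before to 50 after the start), and Ccna2 and Tpx2 did not. The CHR was searched as TTTGAA and the CCAAT box as CCAAT, both on either strand. The first was in 4 of the 8 windows (those 3 and Cdk1) and in 11.7% of the windows of 10450 tested genes. The second was in 5 of the 8, the same 4 and Bub1, and in 38.5% of windows. Capitals mark TTTGAA or its complement. The match is a description of letters in a window, and no binding was measured. The 8 genes were picked from cell division lists by their values here, so these shares say nothing about S961.
Mki67, chr7:135716330-135716629, minus strand: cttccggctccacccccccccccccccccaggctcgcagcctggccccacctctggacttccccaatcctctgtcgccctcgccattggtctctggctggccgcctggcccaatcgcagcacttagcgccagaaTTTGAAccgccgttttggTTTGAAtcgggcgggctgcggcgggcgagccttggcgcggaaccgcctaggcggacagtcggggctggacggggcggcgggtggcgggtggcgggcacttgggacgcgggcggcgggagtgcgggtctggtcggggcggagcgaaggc
Top2a, chr11:99024140-99024439, minus strand: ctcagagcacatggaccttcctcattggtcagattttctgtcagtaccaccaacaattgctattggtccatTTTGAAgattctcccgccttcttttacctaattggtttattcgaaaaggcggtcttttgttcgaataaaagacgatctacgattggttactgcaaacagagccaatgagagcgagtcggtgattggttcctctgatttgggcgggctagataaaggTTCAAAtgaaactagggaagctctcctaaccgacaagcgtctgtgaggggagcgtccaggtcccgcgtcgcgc
Bub1b, chr2:118597961-118598260, plus strand: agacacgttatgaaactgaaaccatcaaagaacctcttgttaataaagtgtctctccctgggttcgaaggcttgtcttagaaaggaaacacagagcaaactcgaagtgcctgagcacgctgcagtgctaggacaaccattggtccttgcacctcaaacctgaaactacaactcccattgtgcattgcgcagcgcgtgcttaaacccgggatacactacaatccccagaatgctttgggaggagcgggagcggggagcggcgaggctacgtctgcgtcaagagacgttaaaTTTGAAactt

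The mitosis genes had mostly positive differences after S961 in libraries labelled control, and no gene was called for the difference of responses. In limma 0 genes passed at an adjusted p below 0.05 (0%), and 350 had an unadjusted p below 0.05 (2.58%), 189 positive and 161 negative (1.39% and 1.18%). S961 against saline in libraries labelled control gave 0 calls (0%) and 104 genes at an unadjusted p below 0.05 (0.765%). The difference of responses uses the same βKlf6KO libraries as the comparison above, so it is no separate evidence on them. The mitosis list had a median of -0.74 in libraries labelled βKlf6KO and 0.54 in those labelled control, where 37 of 40 members were above 0. In libraries labelled control the median was 0.30 and 0.25 without control S961 replicates 4 and 6. Control S961 replicates 2 and 8 and control saline replicate 4 stood far from the other 25 libraries on the first component of all 28, and without these 3 the control median was 0.79. At an unadjusted p below 0.05, 26 of its 40 members had a negative difference of responses and 0 a positive one, and 0 were called. Mki67 averaged 3.39 after S961 and 4.27 after saline under the βKlf6KO label, and 1.90 after S961 and 0.77 after saline under the control label. Its difference of responses was -2.01 (95% interval -3.49 to -0.53; limma adjusted p = 1).

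Among the 6 genes with the smallest p for the difference of responses, 2 serve DNA repair. The recombination helicase Rad54l had a difference of -1.77, with a response of -0.99 under the βKlf6KO label, and the exonuclease Exo1 one of -2.13, with a response of -0.995. The actin-binding protein Synpo2 had the smallest p (limma adjusted p = 1), with a difference of -0.97. Its response was -0.30 under the βKlf6KO label and 0.66 under the control label. The ubiquitin ligase Ube4b had a difference of -0.77, from responses of -0.265 under the βKlf6KO label and 0.505 under the control label. The microRNA host gene Mir670hg had a difference of -0.84, from responses of -0.36 and 0.48 in the same order. The trypsinogen-like gene Gm5771 had 4.45, with responses of 2.12 under the βKlf6KO label and -2.32 under the control label. Under the βKlf6KO label S961 replicates 1 and 2 had 5.44 and 5.16 log2 CPM. The other S961 libraries had -0.02 to 1.62, against -1.85 to 1.43 after saline. As one of a family of near-identical genes it may share reads with its relatives.

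The 12 genes with the smallest p came from several functions. S100a13, a calcium-binding protein (chromosome 3, plus strand, start 90514435), had 3.85, 3.74, 3.88, 3.45, 3.82, 3.80, 3.77 and 3.92 log2 CPM in S961 replicates 1 to 8, against 4.07, 4.25, 4.20, 4.29, 4.37 and 4.15 in saline replicates 1 to 6. The groups did not overlap, and the difference was -0.44 ± 0.10 (SE; 95% interval -0.65 to -0.24; limma adjusted p = 0.998). It was nearly the same in lanes 4, 5, 6 and 7, at -0.42, -0.44, -0.45 and -0.42. Slc16a9, a monocarboxylate transporter, had 4.04 to 4.53 after S961 and 4.53 to 4.71 after saline, a difference of -0.37 (limma adjusted p = 0.998). In 7 of 8 S961 libraries it was below every saline library. Nt5e, the ecto-nucleotidase CD73, ranged from -2.27 to 0.37 after S961 and from 0.21 to 1.25 after saline, on 8 to 37 and 35 to 81 reads, a difference of -1.53 (limma adjusted p = 0.998). The histone chaperone Asf1b, which works at replication forks, differed by -0.76, with 7 of 8 S961 libraries below every saline library. Grem1, a secreted BMP antagonist, differed by -3.16, but it ranged from -2.83 to 3.64 over the saline libraries alone and from -3.18 to -0.51 after S961.

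The other 7 of the 12 were higher after S961. Zmat3, an RNA-binding protein and p53 target (chromosome 3, minus strand, start 32334792), had 6.23, 6.26, 6.11, 6.62, 6.37, 6.50, 6.22 and 6.48 log2 CPM in S961 replicates 1 to 8, against 6.05, 6.11, 6.03, 5.98, 5.59 and 5.89 in saline replicates 1 to 6. All 8 S961 values were above all saline values, though the lowest S961 value and the highest saline value are equal to the second decimal. The difference was 0.41 ± 0.11 (SE; 95% interval 0.18 to 0.64; limma adjusted p = 1). Cckbr, the receptor for gastrin and cholecystokinin, ranged from -0.80 to 0.21 after S961 and from -2.04 to -0.90 after saline, on 23 to 43 and 9 to 16 reads. It differed by 1.41 (95% interval 0.60 to 2.22; limma adjusted p = 1), with 8 of 8 libraries above every saline library. With so few reads its size depended on the scale, at 0.052 with a floor at 1 CPM, 0.50 with a pseudocount of 1 CPM and 2.68 with quantile scaling. Ddit4l, an inhibitor of mTORC1, differed by 0.63, the kindlin Fermt1 by 0.93 and the adhesion protein Igsf11 by 0.43. The ubiquitin ligase Rnf169, which acts at DNA breaks, differed by 0.27 and the predicted gene Gm10557 by 0.39. For each of these 5 genes 6 or 7 of 8 S961 libraries lay above every saline library.

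Several apoptosis and p53 target genes stood higher after S961, and again none was called. Of 24 tested genes of 25 listed, 20 were above 0, with a median of 0.20 and 6 higher and 0 lower at an unadjusted p below 0.05, beside 1.81% and 1.23% of all genes. The 6 were Zmat3 at 0.41, the receptor Eda2r at 0.89, the stress protein Trp53inp1 at 0.66, the cell cycle inhibitor Cdkn1a (p21) at 0.41, the pro-apoptotic Bcl2l11 at 0.27 and the nuclease Aen at 0.22. The p53 inhibitor Mdm2, on another list, differed by 0.03 (95% interval -0.14 to 0.21), and the pro-apoptotic target Bbc3 by 0.05 (95% interval -1.07 to 1.16). The list median was -0.07 in libraries labelled control. Within lanes 4, 5, 6 and 7 the median was 0.18, 0.18, 0.18 and 0.32. The summed level of the list was 10.55 to 11.19 on the log2 scale after S961 and 10.40 to 10.66 after saline. The list mean, relative to the saline mean, overlapped more, at -0.02 to 0.49 after S961 and -0.12 to 0.21 after saline. Only S961 replicates 6, 7 and 8, at 0.42, 0.37 and 0.49, lay above all saline libraries on it, and the same 3 had the highest acinar markers (given below). The part of those markers in this difference was not tested.

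Chaperones of the endoplasmic reticulum leaned lower by small amounts. Of 37 tested genes of 38 listed, 31 were below 0, with a median of -0.11. At an unadjusted p below 0.05, 8 were lower and 0 higher, beside 1.23% and 1.81% of all genes. These included the disulfide isomerases P4hb at -0.26 (95% interval -0.43 to -0.09) and Pdia6 at -0.25, the translocon subunit Sec61b at -0.28 and Sdf2l1 at -0.32. Hspa5 (BiP), the main chaperone of the compartment, differed by -0.07 (95% interval -0.48 to 0.34). For 35 of the 37 the interval lay within 2-fold. Among 38 ATF4 and amino acid response genes the median was 0.05. At an unadjusted p below 0.05, 3 were higher and 0 lower, beside 1.81% and 1.23% of all genes. The 3 were the stress kinase Eif2ak3 (PERK) at 0.34, the cystine transporter Slc7a11 at 0.71 and the secreted protein Stc2 at 0.64. Ddit3 (CHOP) differed by 0.06 (95% interval -0.61 to 0.72).

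Most genes of insulin signalling and β-cell identity had small fitted differences with intervals within 2-fold. Of 37 insulin receptor and FoxO genes tested, of 39 listed, 36 had an interval within 2-fold, with a median of 0.07. At an unadjusted p below 0.05, 2 were higher and 0 lower, beside 1.81% and 1.23% of all genes. The insulin receptor Insr differed by 0.14 (95% interval -0.10 to 0.38), its adaptor Irs2 by -0.14 (-0.39 to 0.12) and the factor Foxo1 by 0.00 (-0.26 to 0.27). The 2 were Foxo3 at 0.17 and the growth factor Igf2 at 0.46. Of 26 β-cell transcription factors tested, of 28 listed, 24 had an interval within 2-fold and the median was -0.04. Their fitted differences ran from -0.97 to 0.31. Pdx1, which drives insulin transcription, differed by -0.16 (-0.34 to 0.01) and Nkx6-1 by -0.03 (-0.27 to 0.21). Mnx1 differed by -0.37 and was the 1 member with an unadjusted p below 0.05 (limma adjusted p = 1). Of 41 glucose-sensing, granule and exocytosis genes 33 were below 0, with a median of -0.11, and 34 had an interval within 2-fold. Ins1 was the 1 with an unadjusted p below 0.05. The glucose transporter Slc2a2 differed by -0.08 (-0.45 to 0.29) and the amyloid peptide gene Iapp by -0.17 (-0.52 to 0.18). Of 15 dedifferentiation and progenitor genes 2 were higher and 0 lower at an unadjusted p below 0.05, beside 1.81% and 1.23% of all genes. They were Sox4 at 0.51 and Sox9, which also marks ducts, at 0.56. All 15 tested α-cell markers had intervals within 2-fold, with Gcg at 0.07.

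The Krüppel-like family of Klf6 had small differences. Of 17 tested members of 20 listed, 14 were above 0, with a median of 0.09, 2 higher and 0 lower at an unadjusted p below 0.05 beside 1.81% and 1.23% of all genes, and all 17 intervals within 2-fold. Klf11 had 4.90 to 5.24 log2 CPM after S961 and 4.76 to 4.88 after saline, without overlap, a difference of 0.21 (95% interval 0.05 to 0.38; limma adjusted p = 1). Klf7 differed by 0.31.

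Markers of other cells varied widely between single libraries. In bulk samples fewer cells of a type and less RNA per cell cannot be told apart. Of 9 lymphocyte markers tested, of 19 listed, all 9 were below 0, with a median of -2.65. At an unadjusted p below 0.05, 3 were lower, beside 1.23% of all genes, among them the B cell genes Cd22 and Cd79a. Of the 9, 3 had 0 reads in at least 1 of the 14 libraries. The summed level of the 9 was 2.20 to 10.29 on the log2 scale after S961 (median 3.16) and 2.74 to 9.72 after saline (median 7.78). Of the S961 libraries, replicate 8 alone was above the saline median, and of the saline libraries, replicate 2 was at the low end. That saline replicate had the highest Mki67 of the 14 libraries, 4.83, and S961 replicate 8 the lowest, 2.79. Saline replicate 6, at 8.25 for the lymphocyte markers, had the next highest Mki67, 4.38. The relation of these markers to Mki67 was not tested. Of 27 macrophage markers tested, of 28 listed, 23 were below 0 with a median of -0.26, and Lyz2 differed by -1.04 (limma adjusted p = 1). Their summed level was 7.89 to 9.47 after S961 and 7.93 to 10.10 after saline.

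Exocrine markers were higher in some S961 libraries. Of 29 acinar markers tested, of 35 listed, 28 were above 0, with a median of 0.42. At an unadjusted p below 0.05, 4 were higher and 0 lower, beside 1.81% and 1.23% of all genes. The 4 were the trypsinogens Try5 at 0.88, Prss3 at 1.36 and Prss1 at 1.57, and the trypsin inhibitor Spink1 at 0.96. Trypsinogens are near-identical relatives that may share reads. The summed level was 15.03 to 17.02 on the log2 scale after S961 and 14.42 to 15.73 after saline. S961 replicates 6, 7 and 8 were above all saline libraries and the other 5 among them. Within lanes 4, 5, 6 and 7 the median member differed by 0.59, -0.36, -0.26 and 1.70, so the direction was not shared by the lanes. The acinar median was 0.23 without S961 replicate 8 and 0.26 without saline replicate 5, and 0.08 with the replicate number as a block (0.07 in the 14 libraries). The count of 4 was 2 without S961 replicate 1 or 8 and 1 without saline replicate 1 or 5. Of 16 ductal markers 13 were above 0, with a median of 0.35. At an unadjusted p below 0.05, 4 were higher, beside 1.81% of all genes. Among them were the matrix protein Spp1 at 0.70 and the chloride channel Cftr at 0.89. The ductal median was 0.17 without S961 replicate 8 and 0.05 with the replicate block, and leaving out 1 library gave counts of 1 to 4 (lowest without saline replicate 2). All 6 tested Reg family genes, which respond to tissue injury, were above 0, with a median of 0.71 and 0 with an unadjusted p below 0.05. In libraries labelled control the medians of these 3 lists were -0.60, -0.29 and -0.40. The part of these cells in the other differences was not tested.

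**Figure D4:**
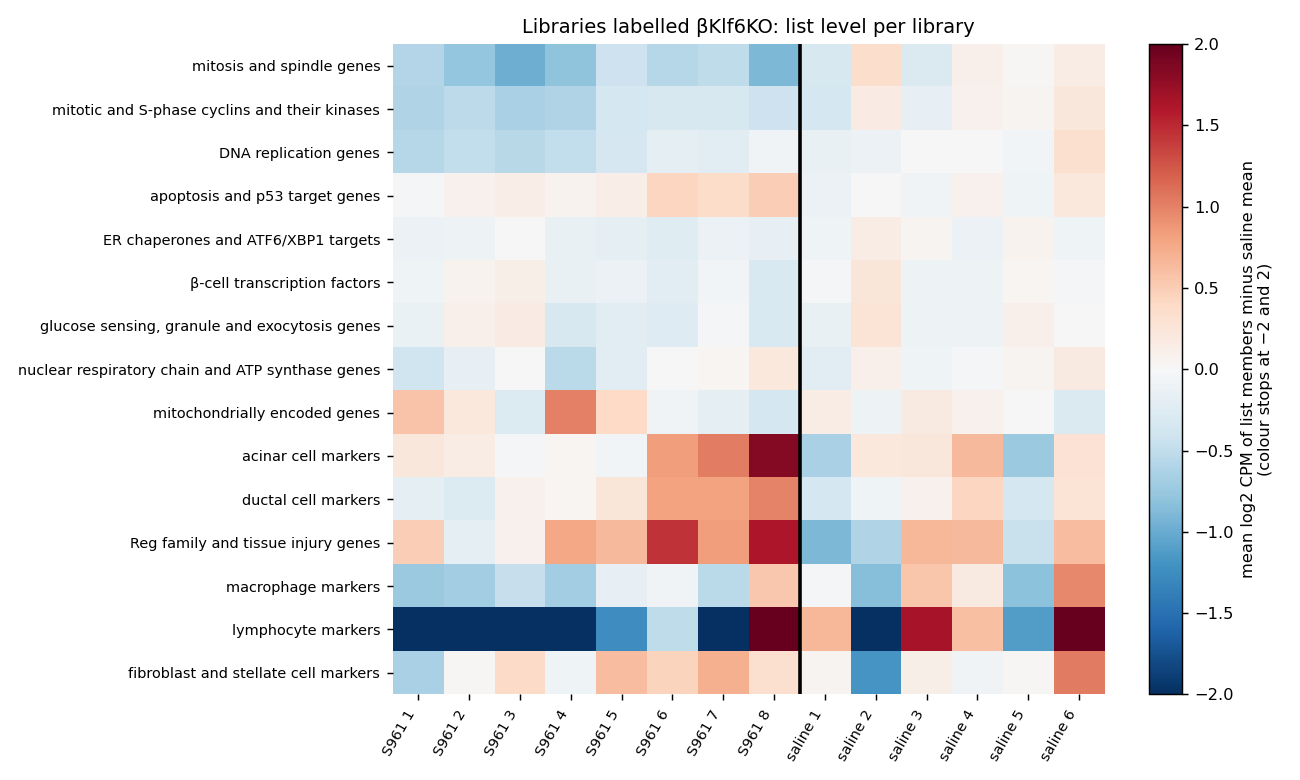
Mean log2 CPM of each list's members minus the saline mean (colour) in the 8 S961 libraries, left of the line, and the 6 saline libraries labelled βKlf6KO. The mitosis list mean is lower in every S961 library than in any saline library, while acinar markers are high in S961 replicates 6, 7 and 8 and lymphocyte markers differ by library in both groups.

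Most of the remaining lists held small medians, and few of their genes had an unadjusted p below 0.05. The 25 fibroblast and stellate cell markers had a median of 0.25 with 18 above 0, and 2 higher and 0 lower, beside 1.81% and 1.23% of all genes. Leaving out 1 library gave fibroblast medians of 0.03 to 0.45. The median was 0.21 for 15 complement and acute phase genes and 0.19 for 8 Schwann and glial cell markers. The 76 nuclear respiratory chain genes had a median of -0.12 with 66 below 0, and 2 lower and 0 higher, beside 1.23% and 1.81% of all genes. The 77 cytosolic ribosomal protein genes had a median of -0.09 and 0 in either direction, and 25 cholesterol synthesis genes a median of -0.15 with 0. The 9 mitochondrially encoded genes had a median of 0.18, with lane values of 0.69, 0.29, -0.34 and -0.12. Of 32 antioxidant genes tested, 15 were above 0 and 17 below, with a median of -0.04 and a range from -0.46 to 0.71. At an unadjusted p below 0.05, 3 were higher and 0 lower, beside 1.81% and 1.23% of all genes. Higher members included Slc7a11 at 0.71, Gclc, the rate-limiting enzyme of glutathione synthesis, at 0.38, and catalase (Cat) at 0.48. Of the fatty acid synthesis and ChREBP genes, the desaturase Scd1 differed by 0.57 (95% interval 0.11 to 1.04; limma adjusted p = 1). Lcn2, an acute phase gene, differed by 1.20 (95% interval 0.32 to 2.09; limma adjusted p = 1).

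**Figure D5:**
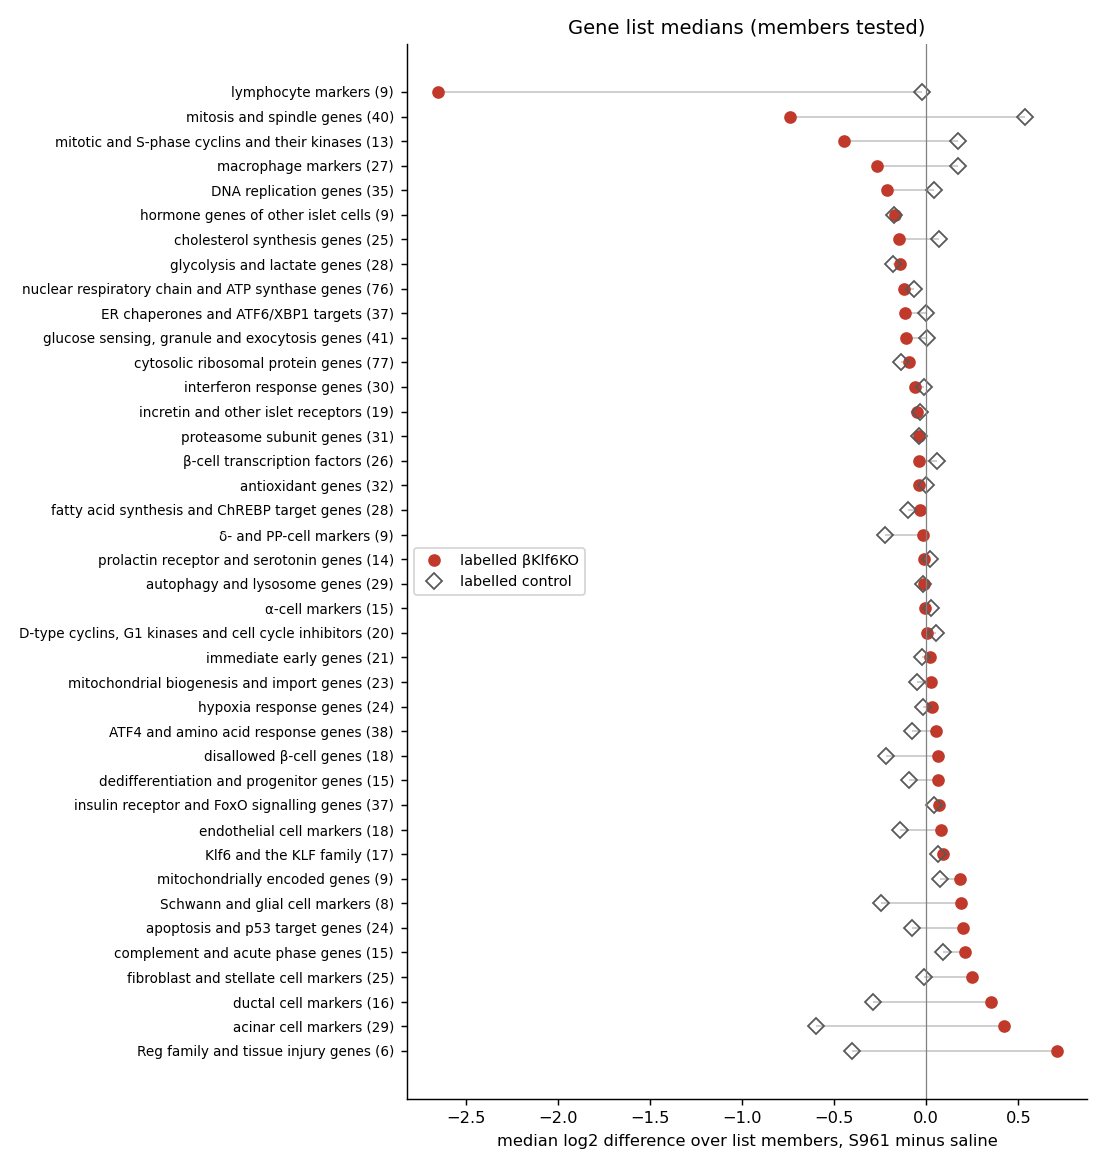
Median log2 difference, S961 minus saline, over the tested members of 40 gene lists (number in brackets), in libraries labelled βKlf6KO (red) and labelled control (open diamonds). Lymphocyte markers (-2.65 against -0.02) and mitosis genes (-0.74 against 0.54) lie lowest in the libraries labelled βKlf6KO, and the Reg family (0.71 against -0.40) and acinar markers (0.42 against -0.60) highest.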

How the data were processed

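The authors deposited 1 table of log2 CPM for 14219 genes in 28 libraries. Per the submitters' processing notes, reads were handled with STAR 2.5.3a, HTSeq 0.9.1 and edgeR on GRCm38; the sources used here do not give the strand setting of the counting, so a gene and its antisense or overlapping partner may share reads. Inverting the deposited log2 values gave whole reads within 0.05 for 100% of values. At this depth a count of 0 allows up to 3 reads; counting error only is covered.

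The filter asked for 1 CPM in 6 or more libraries, which kept 13591 genes and removed 628. Group means of all 28 libraries were fitted with limma 3.58.1 in R 4.3.3 (empirical Bayes, intensity trend, two-sided), without further scaling, with calls at an adjusted p below 0.05 (Benjamini-Hochberg). All adjusted p-values of single genes are limma's over 13591 genes unless an exact test is named. Klf6, Ins1, Ins2 and their ratio were compared by exact permutation tests. The fit was run on simulated data, with noise drawn separately for each gene and the same spread in every group. The real libraries shared a first component and differed in spread between groups, so that run cannot vouch for the fit of these data.

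The comparison, 40 gene lists and tests were chosen with earlier results of these data known. Lists got counts and medians and no test. Named genes were Klf6, Ins1, Ins2 and Mki67, the 12 with the smallest p, 1 member of each list with the smallest p and the 6 with the smallest p for the difference of responses; any other gene was chosen after its values were seen. Symbols and coordinates came from GENCODE M21 on GRCm38 by Ensembl ID (14210 found). Of 43 library pairs within the 2 groups none agreed within sampling noise (smallest chi-square per degree of freedom 34.3). Replicate numbers were not treated as pairs in the main fit.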

Additional observations from a re-analysis of the deposited data

Results flagged for a closer look

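In 11 of 122 groups of values examined (60 named genes and the ratio of the insulin genes, each group with 6 or 8 libraries), 1 library stood apart from the rest of its group by Dixon's criterion. About 1 in 20 groups would do so by chance. All are libraries labelled βKlf6KO.

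For the log2 ratio of Ins1 to Ins2, S961 replicate 1 had -0.86, with the other S961 libraries at -2.25 to -1.63, and saline replicate 1 had -1.81, with the other saline libraries at -1.26 to -1.05.

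S961 replicate 8 was high for 3 genes: the B cell gene Cd22 at 0.82 log2 CPM (others -1.66 to -0.56), the mRNA-decay factor Zfp36 at 3.92 (others 3.17 to 3.48) and the respiratory chain subunit Cox7b at 6.80 (others 6.48 to 6.60). S961 replicate 4 was low for S100a13 at 3.45 (others 3.74 to 3.92), S961 replicate 1 was low for the neuropeptide gene Npy at -1.19 (others 0.30 to 1.58), and S961 replicate 6 was high for Cdc45 at 2.12 (others 1.59 to 1.83).

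Saline replicate 2 was high for Npy at 3.25 (others 0.65 to 1.48), Foxo3 at 6.05 (others 5.63 to 5.72) and Ube4b at 6.69 (others 6.38 to 6.50).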

How the results depend on the processing

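With 28 alternatives that each left out 1 library, 0 genes were called for S961 against saline and for the difference of responses, and 273 to 488 and 259 to 575 genes had an unadjusted p below 0.05, beside 413 and 350. The lowest of the first was without βKlf6KO saline replicate 5, and the highest of the second without control S961 replicate 8. Genes called for S961 against saline numbered 11 with a floor at 1 CPM, 2 with library weights, 44 with the 14 libraries and weights and 76 with the 14 libraries and their first component. Genes at an unadjusted p below 0.05 numbered 258 (filter at 5 CPM), 1177 (library weights), 764 (only the 14 libraries), 1505 (first component), 788 (without the 3 libraries farthest on it), 1862 (14 libraries, first component), 1205 (14 libraries, weights) and 927 (correction for GC content). For the difference of responses they numbered 193 (filter at 5 CPM), 1211 (library weights), 1156 (first component), 641 (without the 3 libraries) and 698 (GC correction), and 0 were called in any alternative. The cause of these shifts was not tested.

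Replicate numbers gave correlations of 0.563, 0.433, -0.606, -0.015, -0.113 and 0.529 between same-numbered libraries. These differ in sign and did not show a pairing of the mice, but they cannot exclude it. With the replicate number as a block 0 genes were called and 274 had an unadjusted p below 0.05, or 1548 in a fit of the 14 libraries.

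Leaving out 1 library gave -1.23 to -0.82 for Ins1, -0.80 to -0.60 for the ratio of Ins1 to Ins2, -0.49 to -0.13 for Ins2 and 0.14 to 0.37 for Klf6. Within lanes, Klf6 differed by 0.80, -0.15, -0.44 and 0.71 in lanes 4 to 7, Ins1 by -0.21 in lane 4, and the ratio by 0.57 in lane 4 (reversed) and -1.06 in lane 7. In limma, Klf6 reversed to -0.022 with library weights, and Ins2 to 0.055 without S961 replicates 1 and 4. The planned edgeR test was not run, since the deposited values are log2 CPM; voom weights on recovered reads gave 0 calls.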
